A study of Mus musculus with 6 samples.

Results

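The genes described here are the activators of the circadian clock and the kinases and F-box proteins that act on clock proteins: *Arntl*, *Npas2*, *Clock*, *Rora*, *Csnk1d*, *Csnk1e*, *Fbxl21* and *Btrc*. They were chosen by symbol, and all 8 were found among the 24421 genes of the deposited table. The study sequenced hepatic mRNA from 3 WT and 3 PAI-1 heterozygous (*Pai-1*+/-) mice, of strain C57BL/6 in the labels and C57BL/6 J in the study. The study describes them as males. They were 21 weeks old per the labels. The age in the study is slightly lower. All were fed standard chow without restriction and none received a drug. The *Pai-1*+/- animals carry a null allele and came from breeding *Pai-1*-/- with WT mice; the controls are described as littermates, and the parents of the WT animals are not described in the sources used here.

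The values are means over all libraries of both genotypes, made by the authors from counts divided by size factors (the mean normalized count). The 6 columns of counts per animal carry numbers that match no sample label, so no column was assigned to a genotype. The table of means was therefore read as a description of the level of each gene in these livers. No difference between *Pai-1*+/- and WT livers, no SD and no p-value is given, and a gene that differed between the genotypes has the same kind of mean as a gene that did not. Whether neighbours in an order of levels differ by more than the spread between mice was not tested.

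The mammalian clock is a feedback loop of transcription. The products of *Arntl* (also known as BMAL1) and *Clock*, or its paralog *Npas2*, bind E-box sequences as a pair and switch on the *Per* and *Cry* repressor genes, whose products then block the pair. A second loop acts on *Arntl* itself, which the ROR receptors activate and the REV-ERB receptors, encoded by *Nr1d1* and *Nr1d2*, repress through shared response elements. Casein kinases 1 delta and epsilon, encoded by *Csnk1d* and *Csnk1e*, phosphorylate PER proteins, which the F-box protein encoded by *Btrc* then marks for degradation, while the F-box protein encoded by *Fbxl21* binds CRY proteins. In liver this clock times much of lipid and glucose metabolism, and the mRNA of several of these genes rises and falls over the day. The hour of collection is not given in the sources used here, so each level belongs to an unknown time of day.

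Several of these genes have close paralogs, and the level of each is only as good as the assignment of reads between them. The coding sequences of 3 pairs are shown at their longest exact match, to set its length against that of a read. Capitals mark the shared run, and the bases in lower case flank it in each gene.
Csnk1d: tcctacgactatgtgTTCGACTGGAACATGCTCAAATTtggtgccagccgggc
Csnk1e: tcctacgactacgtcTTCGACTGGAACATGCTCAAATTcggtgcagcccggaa
Btrc: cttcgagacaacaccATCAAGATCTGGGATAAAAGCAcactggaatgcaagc
Fbxw11: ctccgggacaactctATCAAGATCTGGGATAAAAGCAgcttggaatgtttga
Clock: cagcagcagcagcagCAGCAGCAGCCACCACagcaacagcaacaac
Npas2: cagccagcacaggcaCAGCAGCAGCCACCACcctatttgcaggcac
The longest run was 23 bases in *Csnk1d* and *Csnk1e*, 22 in *Btrc* and *Fbxw11*, and 16 in *Clock* and *Npas2*, all shorter than the 75-base reads. In both casein kinases it lay at bases 862 to 884 of the coding sequence. For *Arntl* and *Arntl2* it was 11 bases.

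The same question was asked of whole transcripts, by looking for each 75-base window of a gene's longest transcript in the transcripts of every other gene in GENCODE M21, on either strand. Only exact matches were counted, so near matches, exons outside the longest transcript and sequence without an annotated transcript were not covered. None of the windows of *Arntl*, *Npas2*, *Clock*, *Csnk1d* and *Fbxl21* occurred elsewhere in this search. In *Rora*, 9 of 10804 windows occurred in the antisense gene *Gm15511*. In *Csnk1e*, 115 of 3100 windows, or 3.71%, occurred in the antisense gene *Gm16059*. In *Btrc*, 118 of 4646 windows, or 2.54%, matched the pseudogene *Gm6807*. Of these windows, 21 matched the ribosomal protein gene *Rpl6*, 21 matched *Gm7027* and 16 matched *Gm6136*. *Gm15511*, *Gm16059*, *Gm6807*, *Gm7027* and *Gm6136* are not rows of the table of means, and *Rpl6* had a mean normalized count of 3583 there. How reads that match both *Btrc* and *Rpl6* were assigned was not tested. The strand setting of the counting is not given in the sources used here, so reads from the 2 strands may be mixed over those stretches of *Csnk1e*, *Rora* and *Btrc*. The same holds for shorter exon overlaps with antisense genes, 33 bases of *Arntl* with *Gm45355* and 63 bases of *Csnk1d* with *Gm28192*. Both are shorter than 75 bases, so the window search could not find them.

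The mean normalized counts of the 8 genes ran from 50.5 for *Fbxl21* to 2819 for *Rora*. Together the 8 genes took 0.0268% of the sum of all mean normalized counts, which was 30046000. All 8 lay above 10, the value used here as the lower limit of a gene within range, as did 12971 genes of the table. Because longer transcripts give more reads, levels of different genes are compared below per kb of the longest annotated transcript. In places they are also given per kb of the longest coding sequence. That scale divides the same count by the coding length, so reads from untranslated parts stay in the count. Genes with long untranslated parts therefore stand higher on it. Lengths were available for 12499 genes within range, whose median level was 129 mean normalized counts per kb of transcript. On that scale 3 of the 8 genes lay above the median and 5 below it.

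**Figure D1:**
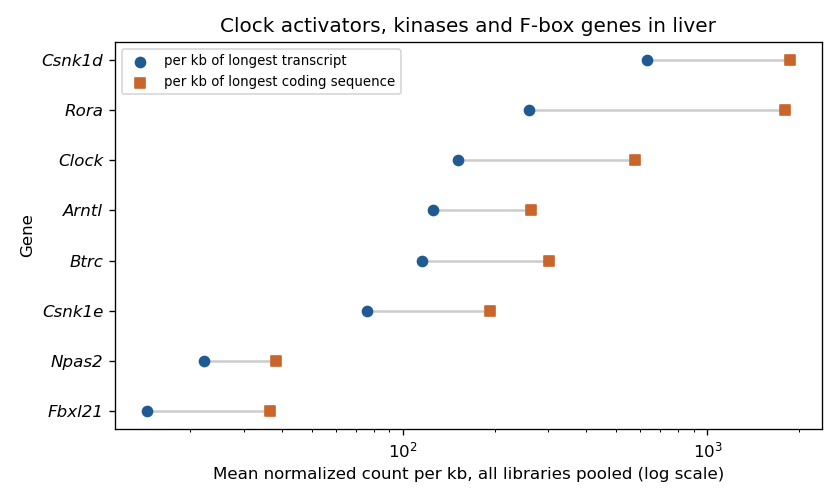
Mean normalized count per kb of each of the 8 genes (log axis), divided by the longest transcript (circles) or by the longest coding sequence (squares), with all libraries of both genotypes pooled and no error bars because the column is a single mean. *Csnk1d* (632 per kb of transcript) is highest and *Fbxl21* (14.4) lowest by either length, while *Rora* draws close to *Csnk1d* and *Btrc* passes *Arntl* when coding length is used.

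Among the activators, *Clock* was the most abundant and *Npas2* the least. *Clock*, which encodes a partner of BMAL1 (chromosome 5, bases 76209868 to 76304792 on the minus strand in GRCm38), had a mean normalized count of 1478, or 152 per kb of transcript, above 53.9% of genes within range. *Arntl* (chromosome 7, bases 113207465 to 113314126, plus strand), the obligate partner in the pair, had 500.2, or 125 per kb, above 49.3% of genes. *Npas2* (chromosome 1, bases 39193731 to 39363236, plus strand), which can take the place of *Clock*, had 93.6, or 22.1 per kb, above 19.5% of genes.

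The 2 partners of BMAL1 were represented by unequal amounts of mRNA. *Clock* exceeded *Npas2* 6.87-fold per kb of transcript and 15.1-fold per kb of coding sequence, and the ratios differ because the longest transcript has 9744 bases in *Clock* against 4236 in *Npas2*. *Npas2* made up 12.7% of the summed level of the pair by transcript length and 6.22% by coding length. *Clock* exceeded *Arntl* 1.21-fold per kb of transcript and 2.19-fold per kb of coding sequence. *Arntl* in turn exceeded *Npas2* 5.67-fold and 6.89-fold on these scales. Its paralog *Arntl2*, which can also pair with *Clock*, had a mean normalized count of 33.1 and supplied 8.10% of the summed level of *Arntl* and *Arntl2*, so *Arntl* was the main form on either length scale.

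*Rora*, a nuclear receptor that activates genes through ROR response elements, spanned the longest gene of the set (chromosome 9, bases 68653786 to 69388246, plus strand, 734 kb) and had the highest mean normalized count, 2819. Divided by its longest transcript of 10878 bases, its level was 259 per kb, above 66.3% of genes within range. Its paralog *Rorb* was listed at 0.

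How *Rora* compared with the REV-ERB genes, whose products compete for the elements that ROR proteins bind, depended on the length used. *Nr1d1* exceeded *Rora* 3.08-fold and *Nr1d2* exceeded it 2.31-fold per kb of transcript, but per kb of coding sequence *Rora* exceeded *Nr1d1* 1.53-fold and *Nr1d2* 1.11-fold. The coding sequence of *Rora* is a small part of its longest transcript, 1569 of 10878 bases, which gave it 1797 per kb of coding sequence. No order of *Rora* against *Nr1d1* or *Nr1d2* can be given from these means.

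A search for the response elements of the clock was made in the windows from 250 bases before to 50 bases after the annotated starts in RefSeq on GRCm38.p6. Windows were listed for 6 of the 8 genes, 12 windows in all, and *Csnk1d* and *Btrc* had none in the table. The letters searched on both strands were TAGGTCA and TGGGTCA for the core of the ROR element, CACGTG for the E-box, and TTACGTAA and TTATGTAA for the D-box bound by the DBP family. A ROR core was found in 1 window of 1 gene, *Arntl*, on the gene strand at base 31 after the later of its 2 annotated starts. The 30 bases around it on the plus strand at chr7:113207530-113207559 are shown because *Arntl* is the textbook target of ROR and REV-ERB proteins, with the core in capitals.
Arntl: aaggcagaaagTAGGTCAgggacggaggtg
Over all 32851 windows of the table, 6.45% held a ROR core, 7.15% an E-box and 1.06% a D-box. No E-box or D-box of these letters was found in the windows of the 6 genes. A match is a description of the sequence only, and binding was not measured.

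Of the casein kinase 1 genes of the set, the delta form was by far the more abundant. *Csnk1d* (chromosome 11, bases 120961749 to 120991330, minus strand) had a mean normalized count of 2322, or 632 per kb of transcript, above 82.8% of genes within range and the highest of the 8 genes on that scale. *Csnk1e* (chromosome 15, bases 79417856 to 79455566, minus strand) had 241, or 76.0 per kb, above 38.7% of genes. *Csnk1d* thus exceeded *Csnk1e* 8.32-fold per kb of transcript and 9.65-fold per kb of coding sequence, and *Csnk1e* made up 10.7% of the summed level of the pair by transcript length. Their longest coding sequences were of nearly equal length, 1245 and 1248 bases without the stop codon. The stretch of *Csnk1e* that overlaps *Gm16059* covered 267 of its 6590 exon bases, or 4.05%. That is a share of bases, and the share of *Csnk1e* reads that fell there was not tested.

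Set beside other kinases that act on clock proteins, *Csnk1d* stood in the middle. *Csnk1a1*, the alpha form of casein kinase 1, had 680 mean normalized counts per kb of transcript, 1.08-fold above *Csnk1d*. The 6 other genes listed as kinases include *Csnk2b*, which encodes the regulatory, not a catalytic, subunit of casein kinase 2. *Csnk2b* was highest of the 6 at 2007 per kb, and *Csnk2a2* lowest at 81.2. Of the 6, 3 lay above *Csnk1d*, namely *Csnk2b*, *Gsk3a* and *Csnk1a1*, and 6 of 6 lay above *Csnk1e*. The kinase gene *Gsk3b* lay at 169 per kb and *Gsk3a* at 771. By coding length 3 of the 6 again lay above *Csnk1d*, which stood at 1865 per kb of coding sequence, but not the same 3. *Gsk3a* moved from above *Csnk1d* to below it, at 1186, and *Csnk2a1* from below it, at 628 per kb of transcript, to above it, at 2253 per kb of coding sequence.

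**Figure D2:**
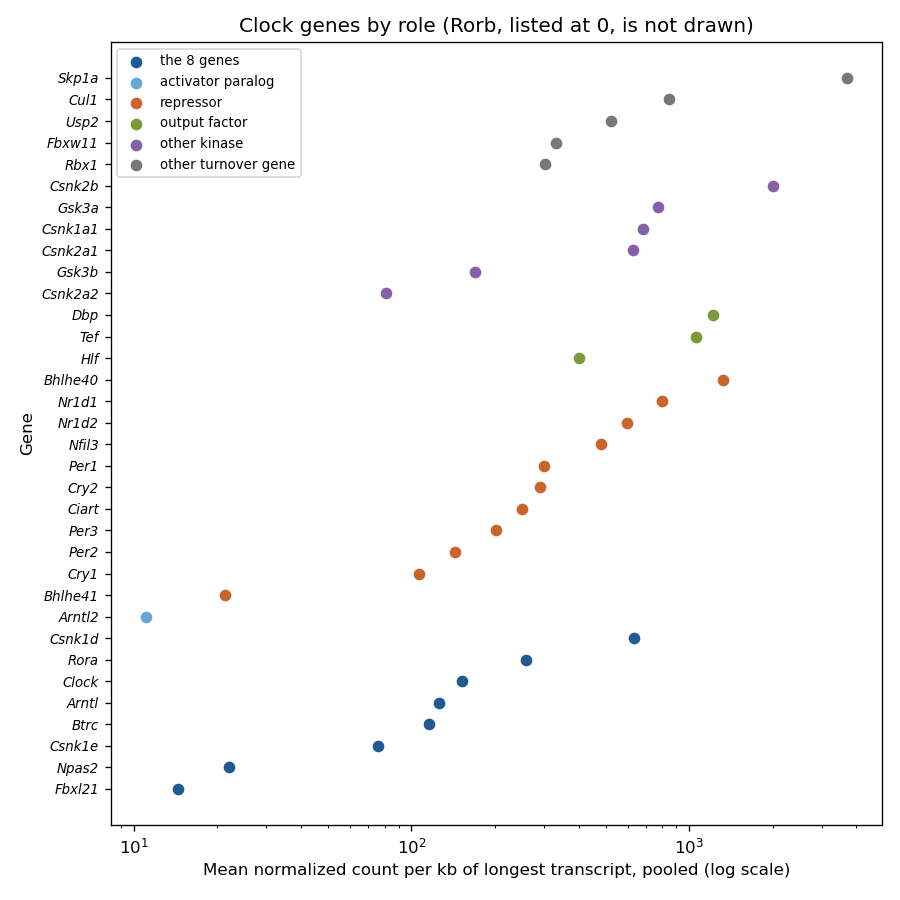
Mean normalized count per kb of the longest transcript (log axis, all libraries pooled, single means without error bars) for the 8 genes and 26 of 27 other clock genes grouped by role. *Csnk1d* lies among the other kinases and output factors, whereas *Npas2* (22.1) and *Fbxl21* (14.4) lie near the low end, where *Bhlhe41* (21.3) and *Arntl2* also fall.

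*Btrc* and *Fbxl21* were the lowest of the protein turnover genes examined. *Btrc* (chromosome 19, bases 45363734 to 45530013, plus strand), which encodes the F-box protein beta-TrCP1, had a mean normalized count of 545, or 116 per kb of transcript, above 47.3% of genes within range. Its paralog *Fbxw11*, which encodes beta-TrCP2, was higher at 333 per kb, 2.88-fold above *Btrc*, and *Btrc* made up 25.8% of the pair. *Fbxl21* (chromosome 13, bases 56522472 to 56537898, plus strand), which encodes an F-box protein that binds CRY proteins, had 50.5, or 14.4 per kb, above 14.6% of genes. *Npas2*, the next lowest of the 8 genes, exceeded it 1.53-fold per kb of transcript and 1.04-fold per kb of coding sequence.

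The shared subunits of these ligases were more abundant than *Btrc* and *Fbxl21*. *Skp1a*, which encodes the adaptor that binds F-box proteins, stood at 3699 per kb of transcript, *Cul1*, the scaffold, at 844, and *Rbx1*, the RING subunit, at 304. The deubiquitinase gene *Usp2* stood at 524 per kb. These and *Fbxw11*, 5 of 5 other turnover genes, lay above both *Btrc* and *Fbxl21*, and this held for coding length also.

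Across the loop as a whole, *Arntl* and *Npas2* lay at lower levels than most of the repressors in these means. The hour of collection is unknown, and whether this order holds at other hours was not tested. Of the 11 repressor genes, 9 lay above *Arntl* and 10 above *Npas2* per kb of transcript, and 8 lay above *Clock*. By coding length 8 lay above *Arntl* and 11 above *Npas2*, but 5 of the 11 lay above *Clock*. The repressors ran from 21.3 per kb of transcript for *Bhlhe41* to 1328 for *Bhlhe40*, with a median of 290, beside a median of 120 for the 8 genes. *Cry1*, at 106 per kb, was the one repressor besides *Bhlhe41* below *Arntl*. The 3 output factors *Dbp*, *Tef* and *Hlf*, which bind D-boxes, stood at 1215, 1059 and 400.1 per kb, and all 3 lay above *Arntl*, *Npas2*, *Clock* and *Rora* on both length scales. Of the 27 other clock genes, 26 were within range, the exception being *Rorb*.

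**Figure D3:**
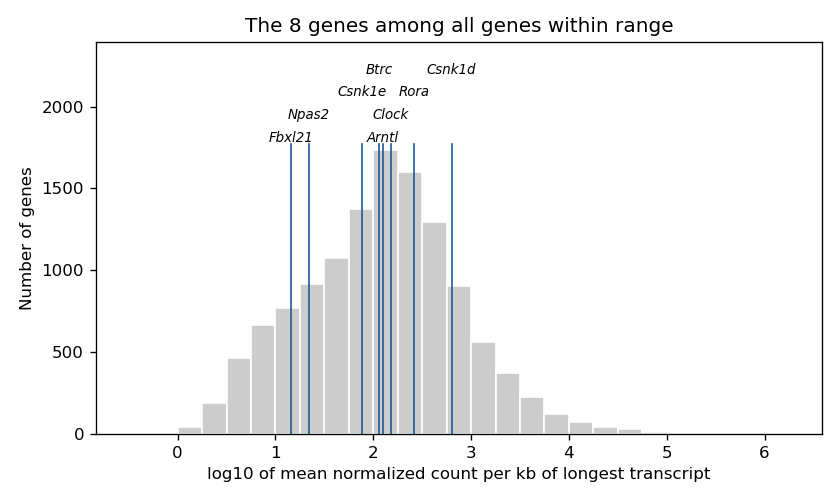
Number of genes (vertical axis) in bins of the log10 mean normalized count per kb of the longest transcript, for 12499 genes within range, with a line at each of the 8 genes. *Btrc*, *Arntl* and *Clock* stand at the peak of the distribution, *Csnk1d* on its upper flank, and *Npas2* and *Fbxl21* on its lower flank.

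These means are averages over whole liver, in which fewer cells of a type and less RNA per cell cannot be told apart. The 5 hepatocyte markers took 8.98% of the summed mean normalized counts, so the defining markers of hepatocytes were abundant in these samples labelled liver. Genes of other liver cells were present at far lower totals, 0.0178% for 5 Kupffer cell, 0.0129% for 5 endothelial, 0.0205% for 5 stellate and 0.00535% for 5 cholangiocyte markers, while 5 lymphocyte markers took 0.000247% and the 4 neutrophil markers listed took 0.000472%. Which cells carried the low levels of *Npas2* and *Fbxl21* was not tested. Because each value is a mean over both genotypes, the genotype labels were not checked.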

How the data were processed

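Hepatic mRNA from 3 WT and 3 *Pai-1*+/- mice was sequenced as single-end 75-base reads. Per the study's methods, the authors aligned reads to mm10 with STAR and ran DESeq2 in the RNA Express application; the submitters' processing notes also name HOMER. Versions, annotation and strand setting are not given in the sources used here. The signal used is the mean normalized count of the authors' deposited table, in which counts were scaled by size factors and averaged across libraries of both genotypes. The authors' deposited log2 fold changes, standard errors, Wald statistics and p-values hold their own comparison and were not used. The 6 count columns carry animal numbers that match no label and were not used, so the edgeR test intended for the counts could not be run. Library totals, and with them the depth and precision per sample, are not given.

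Lengths, coordinates and exon overlaps were taken from GENCODE M21, which uses GRCm38 (mm10), and were matched by symbol for 96.4% of the 12971 genes with a mean above 10. The level of a gene is its mean per kb of the longest transcript, and its place is the percent of genes within range below it. Coding lengths leave out the stop codon. All 8 genes and the fixed lists of 27 other clock genes and 7 sets of cell markers were named, and the results of some other genes are not reported here. The genes and lists were chosen with earlier results of these data known. Functions for ranks, shared windows and motifs were tested on simulated data. Python 3.11.15, NumPy 2.4.6, pandas 2.3.3 and Matplotlib 3.10.9 were used.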

Additional observations from a re-analysis of the deposited data

How the results depend on the processing

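The median of the 8 genes lay above 48.3% of genes within range per kb of the longest transcript. It lay above 54.3% without division by length, above 61.9% of all genes with a mean above 0, and above 47.9% per kb of the longest coding sequence. The last was chosen after seeing the data in place of a length from RefSeq proteins, which was not run because no protein table was used here. The gene that moved most was *Clock*, from 53.9% to 78.6% without division by length, followed by *Rora*, from 66.3% to 88.6%; these have the longest transcripts of the 8. *Csnk1d* remained between 82.8% and 87.4% under all 4 settings. *Csnk1d* was highest and *Fbxl21* lowest per kb of either length, while *Rora* was highest by count. The annotation the authors counted with is not known, so lengths of the transcripts present in these livers may differ from those used. The other normalizations, the filter on low counts, DESeq2 and the fits that leave out a mouse were not run, since the count columns match no sample label and were not used for any value. No paired analysis was possible because the count columns carry animal numbers in place of the replicate numbers of the labels.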
